A study of Caenorhabditis elegans with 12 samples.

Results

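The genes described here are the GATA transcription factors of the intestine and the epidermis of Caenorhabditis elegans, a family of zinc finger proteins named after the DNA letters that they bind. They were chosen by their WormBase symbols, and they are elt-2, elt-7 and elt-4 of the intestine and elt-3, elt-1, egl-18 and elt-6 of the epidermis, 7 of the 17430 genes in the data. RNA was sequenced from whole wild-type N2 worms that were grown to the L4 stage on stt-3 RNAi or control RNAi bacteria and were then kept for 12 h on Pseudomonas aeruginosa PA14, a pathogen of the gut, or on the corresponding RNAi bacteria (E. coli). The 4 conditions were stt-3 RNAi on PA14, control RNAi on PA14, stt-3 RNAi on E. coli and control RNAi on E. coli, each with 3 libraries, so that RNAi feeding was common to all of them. STT-3 is the catalytic subunit of the oligosaccharyl transferase, which attaches glycans to proteins in the endoplasmic reticulum, and the study asked how its loss altered the response to PA14. The values are normalized and rounded scores, not read counts. The depth behind them is unknown, and the labels do not say whether the replicates were separate cultures, so the p values measure the spread between these libraries only.

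ELT-2 is the main transcription factor of the differentiated intestine: it keeps digestive, transport and yolk genes on, and it is needed for the induction of many intestinal immune genes upon infection. ELT-7 acts beside it with partly overlapping targets, and ELT-4 is a short protein related to ELT-2 for which no essential role is known. In the epidermis, ELT-1 sets the fate of the tissue in the embryo, ELT-3 acts after it in the differentiated epidermis, and EGL-18 and ELT-6 maintain the seam cells, the lateral stem cells of the epidermis.

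The libraries labelled stt-3 RNAi did not have a lower stt-3 value. It was 469, 513 and 551 in the labelled libraries against 367, 398 and 434 in control RNAi on PA14, and 461, 488 and 467 against 421, 398 and 434 on E. coli. Whether these values hold only the animals' own stt-3 transcript was not tested, and the groups are called by their label throughout. Another subunit gene, ostd-1, did fall in the labelled libraries, with a log2 fold change of -2.86 on PA14 and -2.35 on E. coli (limma, BH-adjusted p values of 1.84e-07 and 1.40e-06). Markers of other tissues moved with PA14: the summed value of the 7 listed sperm markers was 1095 to 1617 and 680 to 1654 in the labelled and control libraries on PA14, against 11330 to 19460 and 9892 to 24690 on E. coli, and all 5 body muscle markers were lower upon PA14 infection in control RNAi. In that comparison 25.8% of all tested genes were called lower. In a principal component analysis over all tested genes, the labelled replicate 3 on E. coli lay at -38.2 on the first component, against -74.1 and -89.8 for the other labelled libraries on E. coli, and so nearer to the PA14 libraries, which lay at 60.3 to 92.6. In whole animals, fewer cells of a type and less RNA per cell cannot be told apart.

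All 7 genes lie on the plus strand of the WBcel235 assembly and are annotated as protein coding. elt-4 (WBGene00001252, X:10475527-10475959) and elt-2 (WBGene00001250, X:10481240-10483441) are neighbours with 5280 bases between them, and elt-7 (WBGene00015981) is at V:4770670-4773086. elt-3 (WBGene00001251) is at X:13934874-13941216 and elt-1 (WBGene00001249) at IV:9614995-9620280. egl-18 (WBGene00001186, IV:1902322-1917840) ends 136 bases before the start of elt-6 (WBGene00001253, IV:1917977-1921643) on the same strand. No other gene of the data overlaps any of the 7. Reads in the gap between egl-18 and elt-6 could have been assigned to either gene, since both lie on the same strand. Noncoding genes on the minus strand, none of them in the data, overlap egl-18, elt-3 and elt-1. The use of strand in counting is not stated, so reads of these could have been included. elt-3 is also overlapped by K02B9.8, a noncoding gene on its own strand that is not in the data. Reads of K02B9.8 could have been included in elt-3 whether or not strand was used.

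All 7 mRNAs had low values. The mean value over the 12 libraries ranged from 6.83 for elt-6 to 52.1 for elt-7, and these means stood at percentiles from 1.71 to 41.7 of the 12908 genes tested. All 7 passed the filter on low values, which asked for 10 or more in 3 or more libraries, but elt-6 passed it through PA14 libraries alone, so that it had to be higher there to be tested at all.

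Per kilobase of exon, the intestinal factor elt-7 had the highest mean level in 3 of the 4 conditions. In the labelled libraries on PA14 its level was 69.8 per kb, followed by elt-4 at 59.3, egl-18 at 31.6, elt-3 at 28.4, elt-2 at 25.3, elt-1 at 10.7 and elt-6 at 7.59. In control RNAi on PA14, elt-7 at 90.8 and elt-4 at 81.6 per kb overlapped each other and lay above elt-2 at 30.6, elt-3 at 27.5 and egl-18 at 24.3 in every library, and these in turn lay above elt-1 at 7.69 and elt-6 at 6.88. In control RNAi on E. coli the epidermal factor elt-3 was first with 41.4 per kb, its libraries overlapping those of elt-7 at 38.4, and elt-6 was last in each of the 4 conditions. Neighbours in this order overlapped in their libraries, except that elt-1 stood below the next higher gene in every condition, elt-6 stood below elt-1 in all conditions but control RNAi on PA14, and elt-4 stood above elt-2 in control RNAi on PA14. elt-4 has an exon length of only 388 bases, and its level per kb rests on values between 8 and 38.

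**Figure D1:**
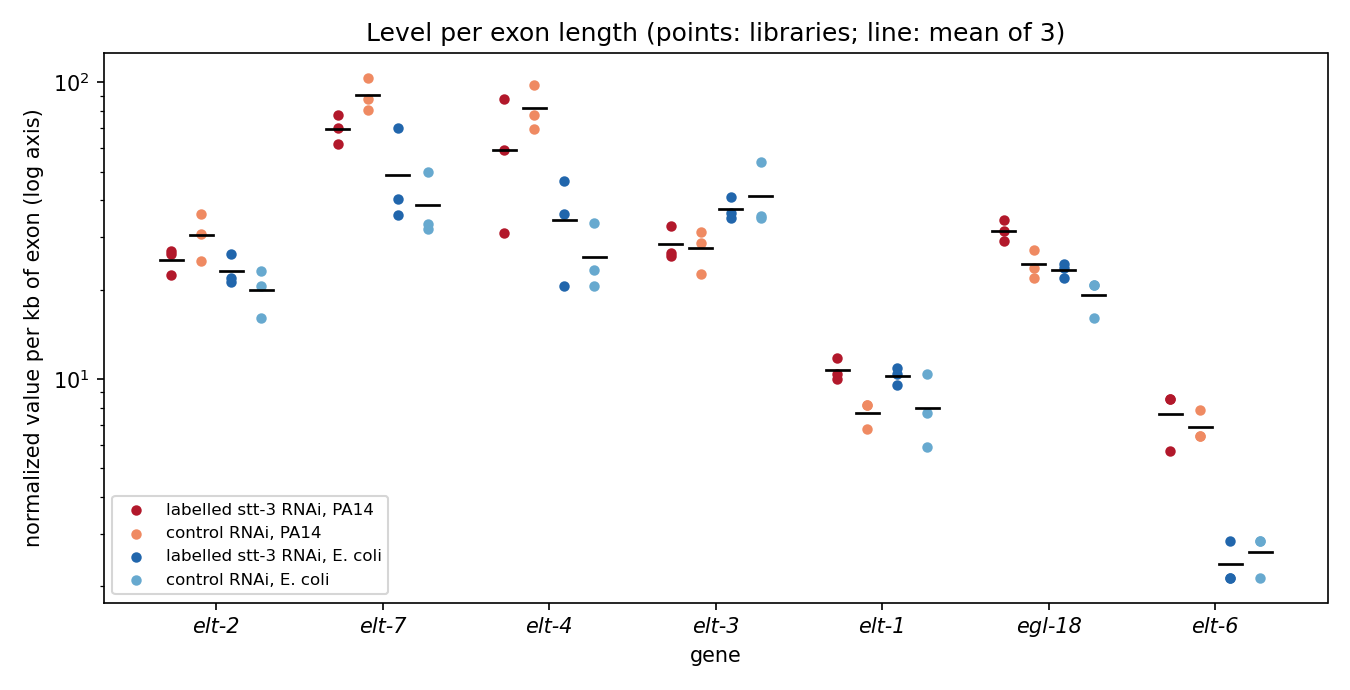
Normalized value per kilobase of exon (log axis) for the 7 GATA factors, with 1 point per library, the mean of 3 libraries as a line, and the conditions in 4 colours. elt-7 and elt-4 stand highest on PA14, with means of 90.8 and 81.6 per kb in control RNAi, and elt-6 stands lowest in each condition.

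Upon PA14 infection in control RNAi, all 3 intestinal factors rose. elt-7 and elt-4 rose by more than 2-fold and elt-2 by 1.52-fold, whereas in the epidermis elt-6 rose 2.29-fold, elt-3 fell and elt-1 and egl-18 did not pass the test. Thus 4 of the 7 genes were higher and 1 was lower (limma, BH-adjusted p value under 0.05), when 51.6% of all tested genes passed in either direction, 25.8% higher and 25.8% lower. Of the 7, 3 rose by more than 2-fold, against 10.7% of all genes, and none fell by as much, against 15.9%. elt-6 is among the 4 and the 3, and it had to be higher on PA14 to be tested. The median log2 fold change of the 7 was 0.61, and that of all genes was 0.04. In 6 of the 7 genes the libraries of the groups did not overlap, which held for 59.3% of all genes. Without the control replicate 3 on PA14 the number of genes called fell to 3.

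In the labelled libraries, elt-6 and egl-18 of the seam rose upon PA14 infection, and no intestinal factor passed the test. The 2 genes that passed, both higher, compare with 43.7% of all genes called in either direction, 23.1% higher and 20.6% lower. Only elt-6 rose by more than 2-fold, as 8.30% of all genes did, and 0 of the 7 fell by more than 2-fold, as 14.0% did. elt-6, which is also 1 of the 2 that passed, had to be higher on PA14 to be tested. In 3 of the 7 genes the libraries of the groups did not overlap, which held for 52.2% of all genes. The number called was 1 without the labelled replicate 1 or 3 on PA14 or the labelled replicate 1 or 2 on E. coli, and 3 without the labelled replicate 2 on PA14 or the labelled replicate 3 on E. coli. The median of the 7 was 0.43, and that of all genes was 0.07. None of the 7 genes passed a test of the difference between the PA14 changes of the labelled and the control libraries, which 1.66% of all genes passed, and none of them reached an unadjusted p value under 0.05 in it (limma). A gene that passed in control RNAi only is therefore not shown to have responded differently in the labelled libraries.

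**Figure D2:**
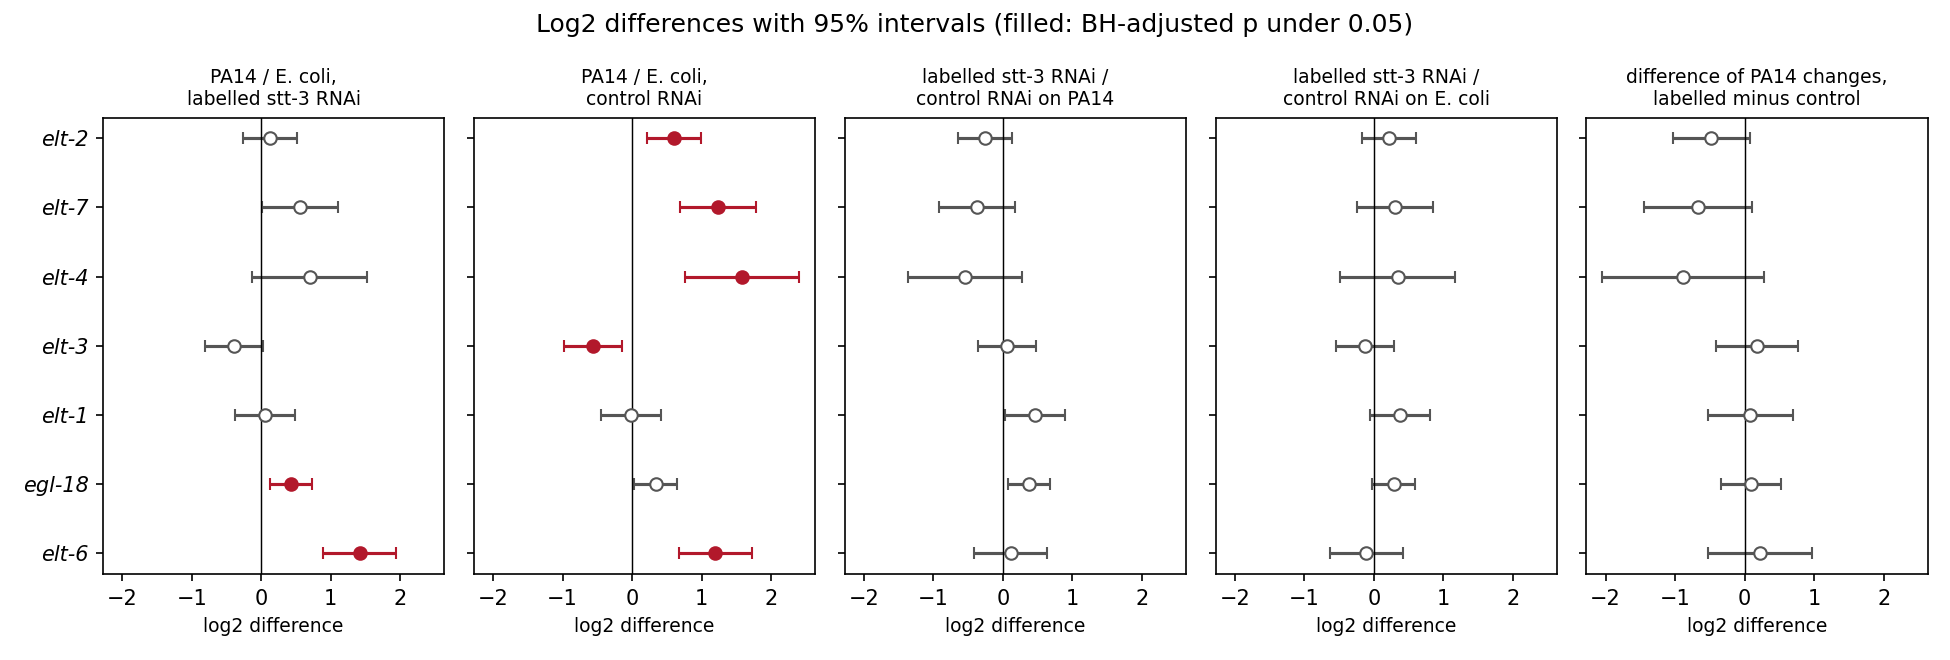
Log2 differences of the 7 GATA factors with 95% intervals in the 5 comparisons, from PA14 against E. coli in the labelled and the control libraries, through labelled against control on PA14 and on E. coli, to the difference of the PA14 changes. Filled points passed a BH-adjusted p value of 0.05, and they are found in the PA14 comparisons only, 2 in the labelled and 5 in the control libraries.

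elt-2 had values of 35, 41 and 42 in the labelled libraries and 48, 39 and 56 in control RNAi on PA14, against 34, 33 and 41 in the labelled libraries and 32, 36 and 25 in control RNAi on E. coli. The control libraries on PA14 were all higher than those on E. coli, while the labelled libraries overlapped between the bacteria. It rose in control RNAi, with a log2 fold change of 0.61 (standard error 0.18, BH-adjusted p value of 0.0142 in limma). This call was lost without the control replicate 3 on PA14 (0.48, BH-adjusted p value of 0.0622) or without the control replicate 3 on E. coli (0.46, 0.0546). With the labelled libraries the log2 fold change was 0.13, with a 95% interval of -0.26 to 0.52 (BH-adjusted p value of 0.591). The difference between these changes was -0.48 (95% interval -1.03 to 0.07, BH-adjusted p value of 0.489), an interval that holds both 0 and the loss of the whole control change.

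For elt-7, the values were 59, 52 and 65 in the labelled libraries and 87, 68 and 74 in control RNAi on PA14, against 30, 34 and 59 in the labelled libraries and 27, 42 and 28 in control RNAi on E. coli. Every control library on PA14 was above every library on E. coli and above every labelled library on PA14, and the labelled replicate 3 on E. coli, which stood apart in the principal component analysis, was as high as the labelled libraries on PA14. The log2 fold change upon PA14 infection was 1.24 in control RNAi (standard error 0.25, limma, BH-adjusted p value of 0.00174). In the labelled libraries it was 0.56 (95% interval 0.02 to 1.11, BH-adjusted p value of 0.0883), and without the labelled replicate 3 on E. coli it was 0.85 and passed the test (BH-adjusted p value of 0.00591). The difference of the PA14 changes was -0.67 with all libraries (95% interval -1.44 to 0.10, BH-adjusted p value of 0.489) and -0.38 without that library (BH-adjusted p value of 0.694).

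elt-4 showed the largest log2 fold change of the 7 genes in control RNAi and the widest spread. It had values of 34, 12 and 23 in the labelled libraries and 38, 27 and 30 in control RNAi on PA14, against 8, 14 and 18 in the labelled libraries and 8, 13 and 9 in control RNAi on E. coli. The control groups did not overlap, and the labelled groups overlapped because replicate 2 on PA14 was as low as the libraries on E. coli. The log2 fold change was 1.58 in control RNAi (standard error 0.37, limma, BH-adjusted p value of 0.00468), and 1.06 with a pseudocount of 10 in place of 1. In the labelled libraries it was 0.70 (95% interval -0.13 to 1.52, BH-adjusted p value of 0.157), and 1.08 without the labelled replicate 2 on PA14, which then passed the test (BH-adjusted p value of 0.0313). The difference of the changes was -0.89 (95% interval -2.05 to 0.28, BH-adjusted p value of 0.584).

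Ratios of the factors within each library were examined after the values had been seen and are given without a test. The value of elt-7 over that of elt-2 was 1.27 to 1.69 in the labelled libraries and 1.32 to 1.81 in control RNAi on PA14, against 0.882 to 1.44 in the labelled libraries and 0.844 to 1.17 in control RNAi on E. coli. In control RNAi these ranges did not overlap between the bacteria, and in the labelled libraries they did. elt-4 over elt-7 was 0.231 to 0.576 in the labelled libraries and 0.397 to 0.437 in control RNAi on PA14, against 0.267 to 0.412 in the labelled libraries and 0.296 to 0.321 in control RNAi on E. coli, with ranges that overlapped between the bacteria in the labelled libraries only. Set against the epidermal elt-3, elt-7 was 1.62 to 2.24 times its value in control RNAi on PA14, against 0.529 to 0.538 times in control RNAi on E. coli, and 1.23 to 1.67 times in the labelled libraries on PA14, against 0.566 to 1.16 times on E. coli.

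**Figure D3:**
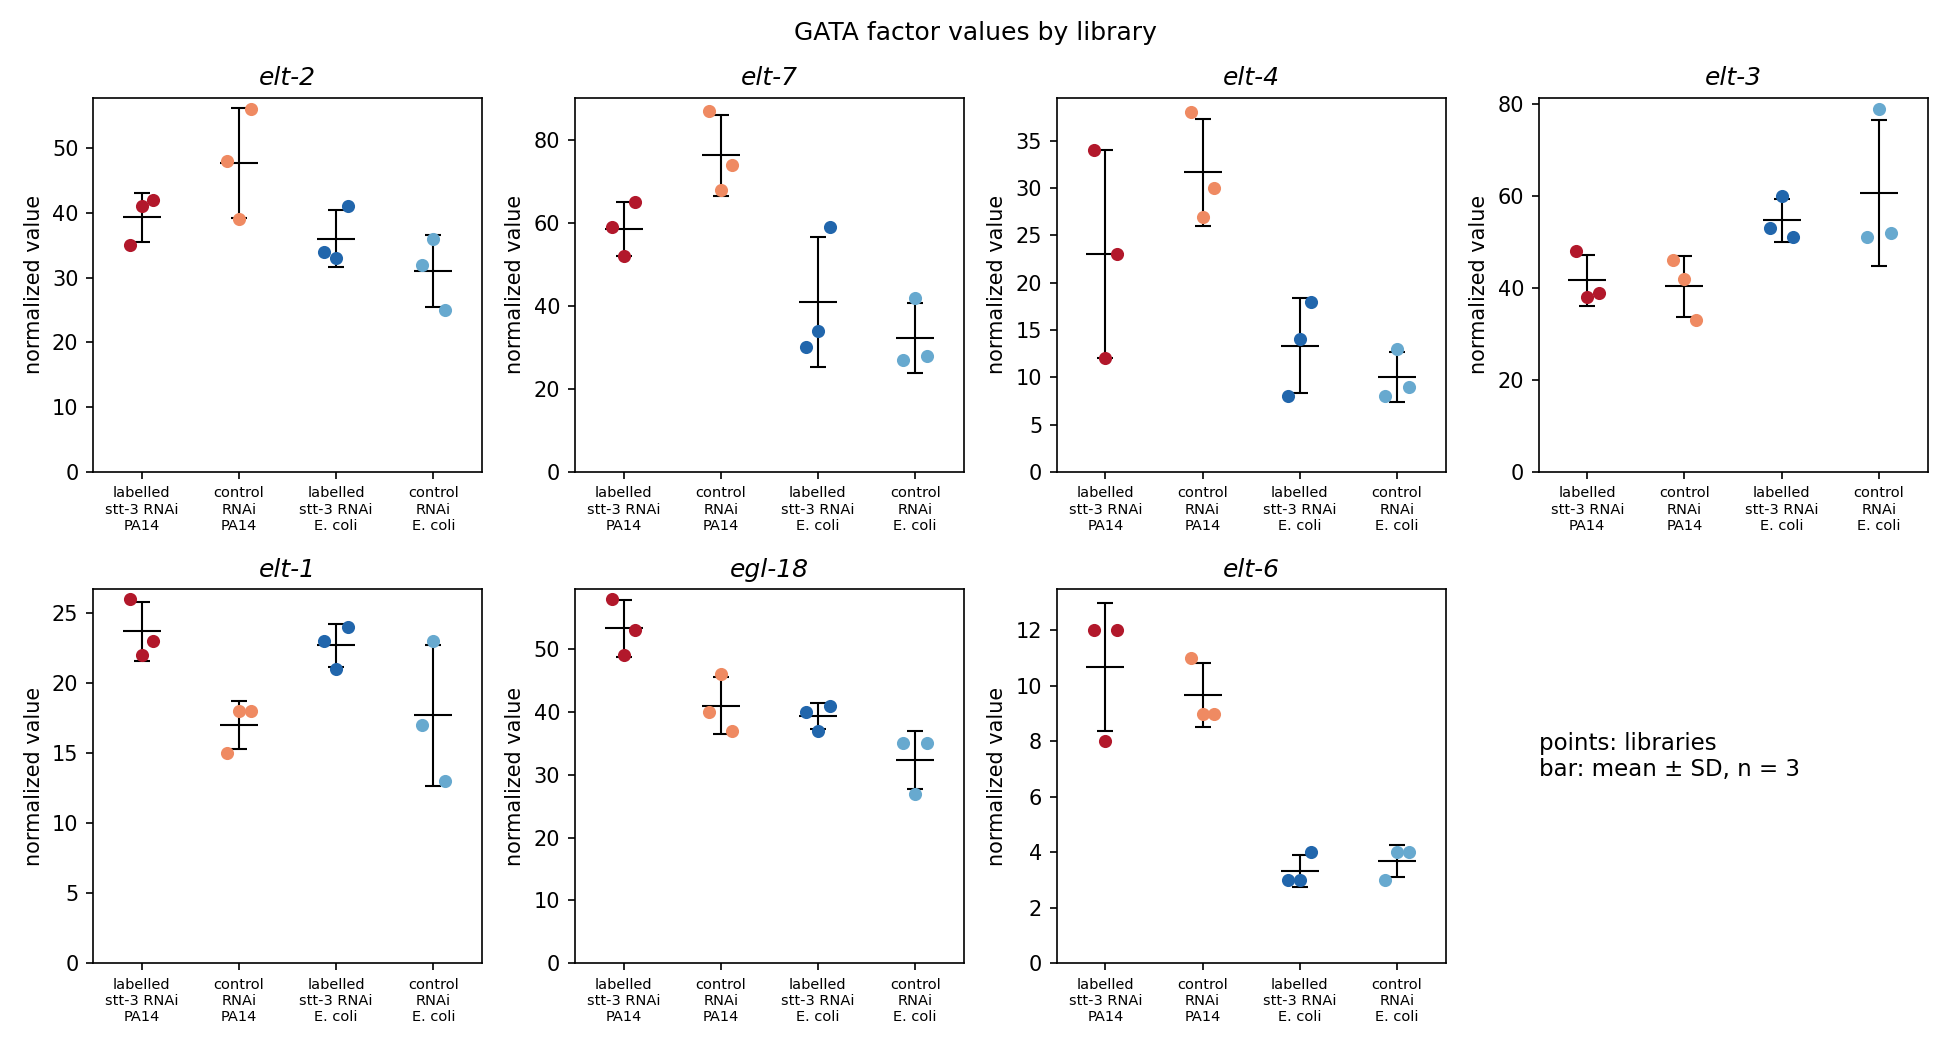
Normalized values of the 7 GATA factors (linear axes from 0), with 1 point per library and the mean and SD of the 3 libraries of each condition. elt-7 lies at 68 to 87 in control RNAi on PA14, against 27 to 42 in control RNAi on E. coli, while elt-1 lies between 13 and 26 in all libraries.

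Markers of the intestine were well detected, and their movement is given beside these results because they share the tissue. ges-1, the gut esterase, had values of 177, 207 and 191 in the labelled libraries and 197, 154 and 218 in control RNAi on PA14, against 146, 137 and 191 in the labelled libraries and 88, 86 and 93 in control RNAi on E. coli. The summed value of the 6 intestine markers, most of it from asp-1, was 9279 to 12640 in the labelled libraries and 37050 to 58780 in control RNAi on PA14, against 10750 to 13000 in the labelled libraries and 17120 to 21570 in control RNAi on E. coli. Upon PA14 infection 3 of the 6 rose and 0 fell in control RNAi (limma, BH-adjusted p value under 0.05; 3 at an unadjusted p value under 0.05), and 0 rose and 2 fell in the labelled libraries (3 at an unadjusted p value under 0.05). Of all tested genes, 25.8% were called higher and 25.8% lower in control RNAi, and 23.1% higher and 20.6% lower in the labelled libraries. The part of intestinal RNA content in the changes of elt-2, elt-7 and elt-4 was not tested.

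Among the epidermal factors, elt-3 was the only one to fall. Its values were 48, 38 and 39 in the labelled libraries and 46, 42 and 33 in control RNAi on PA14, against 53, 60 and 51 in the labelled libraries and 51, 79 and 52 in control RNAi on E. coli. The libraries on PA14 were all below those on E. coli under either RNAi. Its log2 fold change in control RNAi was -0.56 (standard error 0.19, BH-adjusted p value of 0.0284 in limma). The call was lost without the control replicate 2 on E. coli, the highest library (-0.36, BH-adjusted p value of 0.0984), without the control replicate 3 or 2 on PA14 (0.111 and 0.0503), and in a fit of the compared groups alone (0.0786). The labelled libraries had a change of -0.39 (95% interval -0.81 to 0.03, BH-adjusted p value of 0.121), and the difference of the changes was 0.17 (95% interval -0.42 to 0.76, BH-adjusted p value of 0.899).

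elt-1, the factor that sets epidermal fate, did not pass the test in any comparison. It had values of 26, 22 and 23 in the labelled libraries and 15, 18 and 18 in control RNAi on PA14, against 23, 21 and 24 in the labelled libraries and 17, 23 and 13 in control RNAi on E. coli. The bacteria did not separate its libraries under either RNAi. The log2 fold change upon PA14 infection was 0.06 in the labelled libraries and -0.02 in control RNAi (BH-adjusted p values of 0.833 and 0.938, limma), with 95% intervals of -0.37 to 0.49 and -0.45 to 0.41.

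egl-18 rose by 1.35-fold upon PA14 infection in the labelled libraries. Its values were 58, 49 and 53 in the labelled libraries and 40, 46 and 37 in control RNAi on PA14, against 40, 37 and 41 in the labelled libraries and 35, 27 and 35 in control RNAi on E. coli. All libraries on PA14 were above those on E. coli within each RNAi treatment. The log2 fold change was 0.43 in the labelled libraries (standard error 0.14, limma, BH-adjusted p value of 0.0275) and 0.34 in control RNAi (95% interval 0.03 to 0.64, BH-adjusted p value of 0.0611). The labelled call was lost with median-of-ratios scaling (0.35, BH-adjusted p value of 0.0509) and without any 1 of 4 labelled libraries, replicates 1 and 3 on PA14 (0.0933 and 0.0680) and replicates 1 and 2 on E. coli (0.0592 and 0.0965). In control RNAi it passed when the mean-variance trend was left out (0.0470).

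elt-6, the neighbour of egl-18, was near the floor of the data on E. coli. It reached a value of 10 only on PA14 and had to be higher there to be tested. Its separation, ratios and p values below are therefore not independent of the filter. It had values of 12, 8 and 12 in the labelled libraries and 11, 9 and 9 in control RNAi on PA14, against 3, 3 and 4 in the labelled libraries and 3, 4 and 4 in control RNAi on E. coli. Every library on PA14 was above every library on E. coli. The log2 fold change was 1.42 in the labelled libraries (standard error 0.24, limma, BH-adjusted p value of 0.000783) and 1.20 in control RNAi (standard error 0.24, BH-adjusted p value of 0.00169). Its size depends on the pseudocount: with 10 in place of 1 it was 0.63 and 0.52, and with 0.5 it was 1.53 and 1.29, all of which passed the test. The value of elt-6 over that of egl-18 in the same library was 0.163 to 0.226 in the labelled libraries and 0.196 to 0.275 in control RNAi on PA14, against 0.0750 to 0.0976 in the labelled libraries and 0.0857 to 0.148 in control RNAi on E. coli, with no overlap between the bacteria.

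Beside these results, epidermal markers moved with PA14 in both directions. The 6 markers were all detected, and their summed value, dominated by collagens, was 4200 to 6238 in the labelled libraries and 3246 to 6049 in control RNAi on PA14, against 14580 to 31020 in the labelled libraries and 22160 to 32600 in control RNAi on E. coli. Of the 6, 2 rose and 2 fell under each RNAi treatment. The shares of all tested genes called higher and lower were 23.1% and 20.6% in the labelled libraries and 25.8% each in control RNAi. lin-26, a zinc finger gene that maintains epidermal fate, had log2 fold changes of 0.00 in the labelled libraries and 0.06 in control RNAi (BH-adjusted p values of 0.997 and 0.684, limma). The part of the epidermis, the germ line or the muscle in the changes of elt-3, egl-18 and elt-6 was not tested.

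Between the RNAi treatments, no GATA factor passed the test. On PA14, 0 of the 7 were called (limma, BH-adjusted p value under 0.05), against 10.5% of all genes, although elt-1 and egl-18 had an unadjusted p value under 0.05 and were higher in every labelled library than in every control library. The log2 difference of elt-1 was 0.46 (95% interval 0.03 to 0.89, BH-adjusted p value of 0.198) and that of egl-18 was 0.37 (95% interval 0.07 to 0.68, BH-adjusted p value of 0.130). The intestinal factors had negative differences: -0.26 for elt-2 (95% interval -0.65 to 0.13), -0.37 for elt-7 (-0.92 to 0.17) and -0.54 for elt-4 (-1.37 to 0.28), with BH-adjusted p values of 0.444, 0.433 and 0.450. Only elt-7 among them did not overlap between the RNAi groups, and non-overlap held for 30.7% of all genes. elt-3 and elt-6 differed by 0.05 and 0.11 (BH-adjusted p values of 0.915 and 0.841).

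On E. coli, again 0 of the 7 were called and 0 had an unadjusted p value under 0.05 (limma), while 6.41% of all genes were called. The log2 difference was 0.28 for egl-18 (95% interval -0.02 to 0.59, BH-adjusted p value of 0.285), the only one whose groups did not overlap, when this held for 21.9% of all genes. It was 0.38 for elt-1 (95% interval -0.06 to 0.81), and for the other 5 it lay between -0.12 for elt-3 and 0.34 for elt-4. The difference of elt-7 was 0.30 with all libraries and 0.01 without the labelled replicate 3. The PA14 and the RNAi comparisons share libraries and are not independent of each other.

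The study's question places ELT-2 next to the p38 MAP kinase PMK-1 and its target ATF-7 in the induction of immune genes. Another 4 GATA factors belong to the early gut lineage. Of these, end-1 and end-3 start the intestine in the embryo. They had values of 0 to 4 in all libraries and were too low to be tested. med-1 and med-2 were not found by symbol among the genes of the data and so were not analysed here. Of 14 regulators that act beside the GATA factors in the intestine, 3 rose in the labelled libraries and 4 in control RNAi upon PA14 infection (limma, BH-adjusted p value under 0.05), and 0 fell in either, with medians of 0.18 and 0.23, while 23.1% and 25.8% of all tested genes were called higher in the labelled and control libraries. In control RNAi these were pqm-1, which encodes a zinc finger factor of stress responses (2.22, BH-adjusted p value of 7.75e-05), dve-1 of the mitochondrial stress response (1.10, 0.00119), zip-2, a bZIP gene of infection responses (0.99, 0.000284), and pmk-1 itself (0.40, 0.0170). Those of the labelled libraries were pqm-1 (1.14, 0.00526), zip-2 (0.55, 0.0115) and nhr-49, a nuclear receptor gene of lipid metabolism (0.26, 0.0453). Of these, dve-1 and nhr-49 were singled out after their values had been seen. atf-7 had log2 fold changes of 0.24 and 0.07 in the labelled and control libraries (BH-adjusted p values of 0.413 and 0.813). Between the RNAi treatments only sek-1, the kinase gene above pmk-1, passed on PA14 (0.45, BH-adjusted p value of 0.0240), and 0 passed on E. coli (5 at an unadjusted p value under 0.05). The shares of all tested genes called there were 10.5% on PA14 and 6.41% on E. coli.

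ELT-2 is known to bind or drive genes of digestion, transport and yolk in the gut. Of 20 such intestinal genes, all of them tested, 1 rose and 5 fell upon PA14 infection in the labelled libraries, against 9 that rose and 2 that fell in control RNAi (limma, BH-adjusted p value under 0.05), with medians of -0.19 and 0.47 beside 0.07 and 0.04 for all genes. The shares of all genes called higher and lower were 23.1% and 20.6% in the labelled libraries and 25.8% each in control RNAi. On PA14, where 10.5% of all genes were called between the RNAi treatments, 0 of the 20 were higher and 9 were lower in the labelled than in the control libraries, 7 of them by more than 2-fold, with a median of -0.81 beside 0.05 for all genes. On E. coli, where 6.41% of all genes were called, 1 of the 20 was higher and 2 were lower, with a median of -0.25, but with only the groups compared in the fit 0 were higher and 0 lower, with quantile normalization 0 were lower, and with the replicate block 2 were higher. Single libraries moved the smaller counts. The 2 lower genes on E. coli became 0 without the control replicate 1 or 3 there and 1 without the control replicate 2 or the labelled replicate 1 or 2 there. The 2 that fell in control RNAi became 1 without the control replicate 2 on PA14 or on E. coli, and without the labelled replicate 3 on E. coli they became 4, with 2 genes that rose in the labelled libraries and 1 that was higher in them on PA14. The list holds all 6 intestine markers.

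The difference of the PA14 changes passed the test for none of the GATA factors. It was -0.48 for elt-2, -0.67 for elt-7 and -0.89 for elt-4, genes with low values of 8 to 87. These factors are therefore not shown to have responded unlike the 20 intestinal genes. Of the 20, the difference passed for 4, all negative, against 1.66% of all tested genes in either direction. These were vit-5, which encodes a yolk protein (-1.84, limma, BH-adjusted p value of 0.00259), ifb-2, an intermediate filament gene of the gut (-1.82, 0.00758), vha-6, a subunit gene of the gut proton pump (-1.48, 0.00758), and asp-1, an aspartyl protease gene (-1.65, 0.0153), with a median of -0.70 over the 20. ifb-2 and asp-1 were singled out after their values had been seen. Reads of vit-5 could have been split with the near-identical vit genes. vit-5 had values of 6100, 6104 and 7397 in the labelled libraries and 31402, 26706 and 38148 in control RNAi on PA14, against 11407, 10947 and 12755 in the labelled libraries and 16027, 13992 and 18083 in control RNAi on E. coli. Its labelled libraries were lowest and its control libraries were highest on PA14, with no overlap among the 4 conditions. For asp-1 the values were 6631, 7092 and 9444 in the labelled libraries and 50155, 31778 and 49885 in control RNAi on PA14, against 7690, 6659 and 8621 in the labelled libraries and 11943, 14512 and 14764 in control RNAi on E. coli.

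Other genes of the list had other patterns, and ges-1 was singled out after its values had been seen. It was higher in the labelled libraries on E. coli (0.81, limma, BH-adjusted p value of 0.00971), a call that a fit of the E. coli libraries alone did not give, and it rose upon PA14 infection in control RNAi (1.07, 0.000169), and on PA14 its log2 difference between the RNAi treatments was 0.03 (0.945). mtl-2, a metallothionein gene, had log2 fold changes of -1.46 in the labelled libraries and -0.82 in control RNAi (0.000315 and 0.00715) and so fell upon PA14 infection. mtl-1, its paralogue, was the 1 gene that rose in the labelled libraries (4.86, BH-adjusted p value of 0.00118). There the labelled replicate 3 on E. coli had a value of 1024 and the other labelled libraries on E. coli had 71 and 70. It rose in control RNAi as well (6.03, limma, BH-adjusted p value of 0.000222), and the difference of its PA14 changes was -1.17 (0.825).

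**Figure D4:**
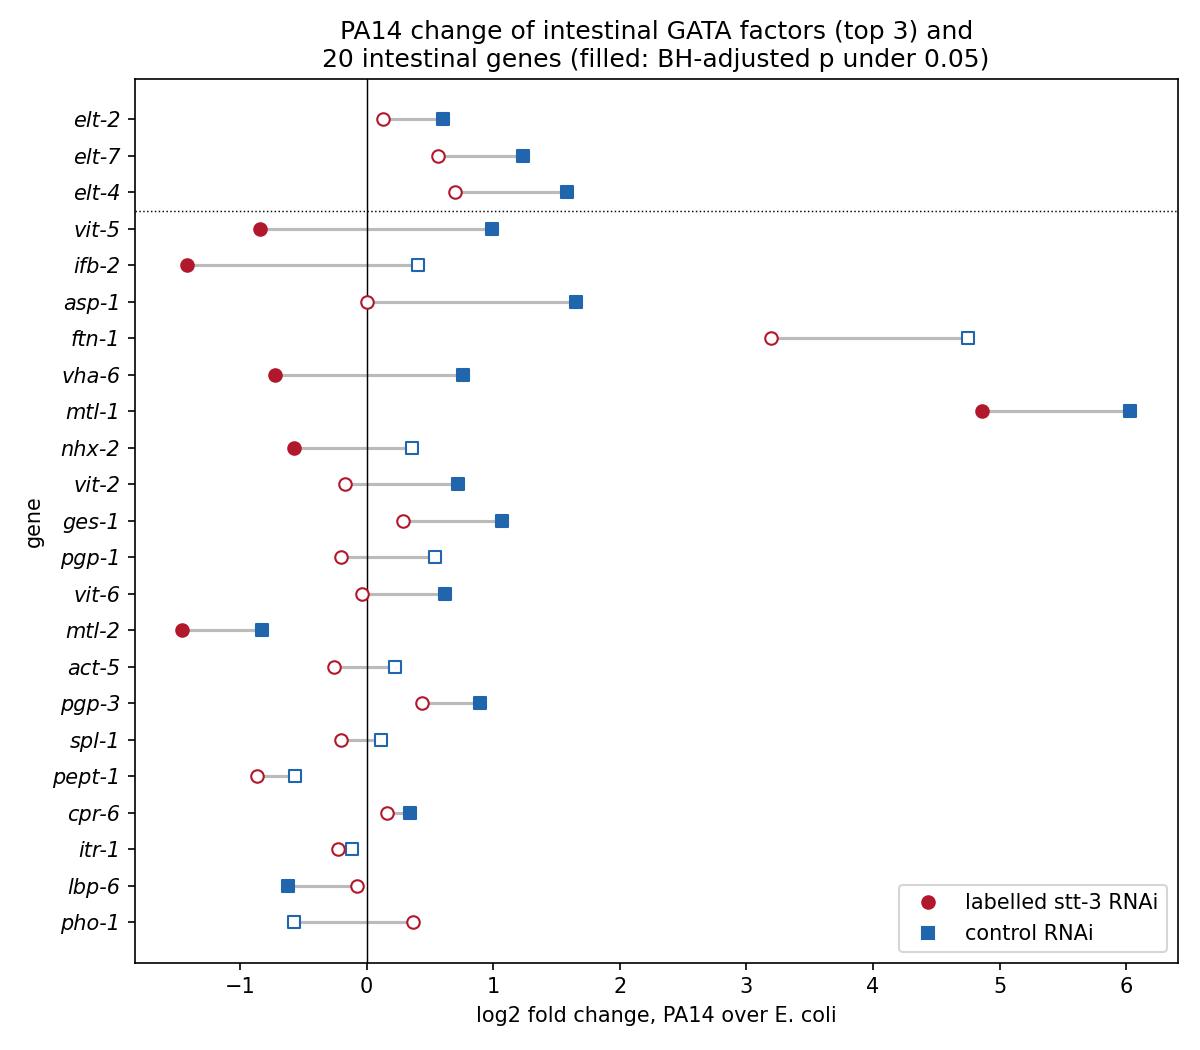
Log2 fold change upon PA14 infection of the 3 intestinal GATA factors (top) and of 20 intestinal genes that ELT-2 binds or drives, sorted by the difference between the labelled (circles) and control (squares) libraries. Filled symbols passed a BH-adjusted p value of 0.05, and for vit-5, ifb-2, asp-1 and vha-6 the difference itself passed, with values of -1.84, -1.82, -1.65 and -1.48.

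The immune genes that the study names as PMK-1 targets and the lectin gene clec-67 were followed in the same way. The study selected 3 of these 4 genes as PMK-1-regulated targets of ATF-7, to follow up its sequencing data. clec-67 was added with earlier results of these data known. The direction of none is therefore independent evidence. In the labelled libraries 0 passed upon PA14 infection (limma, BH-adjusted p value under 0.05; 1 at an unadjusted p value under 0.05), and in control RNAi all 4 rose, with medians of 0.24 and 3.39, and the difference passed for 3 of them. In control RNAi 25.8% of all tested genes were called higher, and 1.66% passed the test of the difference. In the labelled libraries 23.1% were called higher upon PA14 infection and 43.7% in either direction. For sysm-1 (T24B8.5) the values were 153, 74 and 174 in the labelled libraries and 14377, 7078 and 10247 in control RNAi on PA14, against 40 to 177 in the labelled libraries and 139 to 200 in control RNAi on E. coli. The control libraries on PA14 stood far above all others, and the difference of the changes was -5.47 (standard error 0.69, BH-adjusted p value of 0.00428). In the same libraries elt-2 differed between the RNAi treatments on PA14 by -0.26 and atf-7 by 0.14 (limma, BH-adjusted p values of 0.444 and 0.783). These are mRNA values, and the part of either factor in the change of sysm-1 was not tested.

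Of 12 regulators of epidermal and seam fate 7 were tested, and nhr-25, rnt-1, bro-1, blmp-1 and nhr-73 did not pass the filter. Upon PA14 infection 23.1% of all tested genes were called higher and 20.6% lower in the labelled libraries, and 25.8% each way in control RNAi. Of the 7 regulators, 3 rose and 0 fell in the labelled libraries, and 3 rose and 1 fell in control RNAi (limma, BH-adjusted p value under 0.05), with medians of 0.31 and 0.06. The 3 were the same under both treatments: ceh-16, an engrailed homologue of the seam (2.03 and 2.15 in the labelled and control libraries), bar-1, a beta-catenin gene of the Wnt pathway (0.67 and 0.72), and ceh-20, a homeodomain gene (0.56 and 0.85). ceh-16 had values of 14, 8 and 11 in the labelled libraries and 10, 7 and 8 in control RNAi on PA14, against 1, 1 and 5 in the labelled libraries and 2, 2 and 0 in control RNAi on E. coli, so that, like elt-6, it was near the floor on E. coli. It reached a value of 10 only on PA14 and had to be higher there to be tested. lin-29, which directs the larva-to-adult switch of the seam, fell by 2.13 in control RNAi (BH-adjusted p value of 0.00361) and had a log2 fold change of -0.91 in the labelled libraries (0.152), with values of 4, 3 and 4 in the labelled libraries and 0, 2 and 2 in control RNAi on PA14, against 11, 10 and 4 in the labelled libraries and 8, 11 and 6 in control RNAi on E. coli. It reached a value of 10 only on E. coli and had to be lower on PA14 to be tested. Between the RNAi treatments 0 of the 7 regulators passed on PA14 (1 at an unadjusted p value under 0.05) and 0 on E. coli (0 at an unadjusted p value under 0.05). The shares of all tested genes called there were 10.5% and 6.41%.

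Of 24 epidermal structural and effector genes, 8 rose and 9 fell upon PA14 infection in the labelled libraries, where 23.1% and 20.6% of all tested genes did. In control RNAi 7 rose and 11 fell, against 25.8% of all genes in each direction (limma, BH-adjusted p value under 0.05). The medians of the 24 were -1.23 and -1.37 in the labelled and control libraries. By p value, the first of the decreases under both treatments were the collagen genes col-19 of the adult cuticle (-2.29 in the labelled and -3.02 in the control libraries) and dpy-13 (-4.36 and -4.88). Collagen genes did not move one way: dpy-2 (1.51 and 1.10), dpy-3 (2.24 and 1.37), dpy-7 (1.95 and 1.23) and dpy-10 (0.92 and 1.12) rose under both treatments, and sqt-3 rose in the labelled libraries (1.85, BH-adjusted p value of 0.0197), all named after their values had been seen. By p value, wrt-10, a gene related to hedgehog, was first among the increases under both treatments (2.02 and 1.29), and in control RNAi the antimicrobial peptide gene cnc-2 (2.65) was next. Of the 24 genes, bli-1, dpy-8, rol-6 and gpdh-1 reached a value of 10 only on E. coli and wrt-2 only on PA14, so that their direction was fixed by the filter. nlp-31, another antimicrobial peptide gene, was higher in the labelled than in the control libraries on PA14 (1.64, BH-adjusted p value of 0.000862) and, together with nlp-29, on E. coli (1.38 and 1.78, BH-adjusted p values of 0.00545 and 0.00329). No other gene of the 24 passed between the RNAi treatments, where 10.5% of all tested genes were called on PA14 and 6.41% on E. coli.

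Over the 12 libraries, the GATA factors of the intestine varied together more than those of the epidermis. Pearson's r of the log2 values was 0.92 between elt-7 and elt-4, 0.84 between elt-2 and elt-7 and 0.69 between elt-2 and elt-4. elt-6 followed elt-7 and elt-4 (0.85 and 0.84) more closely than its neighbour egl-18 (0.68), elt-3 ran against egl-18 and elt-6 (-0.62 and -0.66), and elt-1 reached at most 0.37 with any of the others. These values describe 12 libraries in 4 conditions with shared normalization, and the step between the bacteria is part of each r.

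By the same measure, the tested genes most like elt-2 were inso-1, tax-6 and fut-1 (0.92, 0.92 and 0.91), and those most like elt-7 were tsct-1, linc-37 and fbxa-157 (0.97 each). elt-4 was closest to F32B4.5, C15H11.11 and Y54E5A.8 (0.98, 0.97 and 0.95). In the epidermal set, elt-3 was closest to fbxl-4, nac-1 and clik-3 (0.98, 0.96 and 0.96), elt-1 to fut-4, nhr-120 and catp-1 (0.92, 0.92 and 0.91), egl-18 to ins-34, xrep-4 and Y38E10A.3 (0.97, 0.96 and 0.95), and elt-6 to vab-2, C34B7.1 and F54B8.4 (0.99 each). None of the 20 intestinal genes or of the 24 epidermal structural genes was among them.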

How the data were processed

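Total RNA of whole worms was made into TruSeq libraries, 3 for each of 4 conditions. The authors aligned the reads to WBcel235 (ce11) with HISAT2 2.0.5, quantified genes with StringTie 1.3.3b and Ballgown, and removed batch effects by upper-quartile normalization and RUVSeq. The deposited values are therefore a score, normalized and rounded, although their column is headed count. The annotation release, the use of strand and the control genes of RUVSeq are not given in the sources used here. The total values per library were 5530614 to 8627187 and the upper quartiles 161 to 165, so that depth cannot be read from them and no counting interval is given. No 2 libraries were identical.

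The Ensembl annotation of WBcel235 gave a symbol for 16626 of the 17430 genes, and also gave positions and exon lengths (T24B8.5 was found as sysm-1 through RefSeq). A gene was tested when 3 or more libraries had 10 or more, which left 12908 genes. The log2(value + 1) values of all 12 libraries were fitted with limma 3.58.1 (R 4.3.3), using a mean for each condition and a mean-variance trend. P values were adjusted over all tested genes by the Benjamini-Hochberg (BH) procedure, and genes were called at an adjusted p value under 0.05, with changes of more than 2-fold counted separately. On the log2(value + 1) scale, changes of low genes are understated. The method was tested on simulated data, with planted changes larger than most of those reported here for the GATA factors. They were planted only in genes above a minimum level, which elt-6 and elt-4 did not reach in control RNAi on E. coli. The simulation therefore does not cover such low values or smaller changes.

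The 7 genes and all lists were chosen with earlier results of these data known. Of each list, the genes with the 2 smallest p values in each direction and regulators introduced in the text are named, and for each GATA factor the 3 genes with the highest Pearson's r; others are said to have been singled out. The replicate numbers were checked for pairing by correlating, across genes, deviations from the condition means. Between the labelled and control libraries on PA14 these were 0.53, 0.26 and 0.39 for equal numbers, so a fit with a replicate block was tried there and for the other comparisons. Further alternatives were other filters and pseudocounts, median-of-ratios factors, quantile normalization, no trend, only the groups compared, and each library left out in turn. No sequences are printed.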

Additional observations from a re-analysis of the deposited data

How the results depend on the processing

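The count of GATA factors called upon PA14 infection, 2 in the labelled libraries and 5 in control RNAi, became 0 and 1 when a mean of at least 50 was required, since only elt-7 was then tested. In the labelled libraries it was 1 with median-of-ratios factors and 4 with quantile normalization, under which elt-7 (0.69, limma, BH-adjusted p value of 0.0396) and elt-4 (1.01, 0.0444) were gained. Quantile normalization placed the median log2 fold change of all genes at 0.14 in the labelled and 0.13 in the control libraries, against 0.07 and 0.04 with the deposited values. With 1 library left out in turn, the counts were 1 to 3 in the labelled and 3 to 5 in the control libraries, the 3 being without the control replicate 3 on PA14. Both RNAi comparisons and the difference of the PA14 changes had 0 calls in all alternatives. With the replicate block the counts were unchanged, 2 in the labelled and 5 in the control libraries upon PA14 infection and 0 in the other comparisons, and no GATA factor gained or lost its call. Under the block 2 of the 20 intestinal genes instead of 1 rose in the labelled libraries. No called direction turned in any alternative. Of the 20 intestinal genes, 4 to 7 were called lower in the labelled libraries and 7 to 10 higher in control RNAi upon PA14 infection over all alternatives, and 7 to 12 were lower in the labelled libraries on PA14. The difference of the PA14 changes passed the test for 3 to 5 of them, all lower. The causes of these changes were not tested. Values of 3 to 12, as for elt-6, leave few steps between libraries, and an unknown depth limits what can be read from them. elt-6 is counted among the GATA factors called above, although it had to be higher on PA14 to be tested.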
